A study of Mus musculus with 6 samples.

Results

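The genes of the mitochondrial protein import machinery and of the mitochondrial carrier family were examined in Fkbp8 mutant and wildtype mouse embryos. Probes were taken as members when their gene symbol began with Tomm, Timm or Slc25a, or was Samm50, Mtx1, Mtx2, Vdac1, Vdac2 or Vdac3. This gave 67 of 18525 named genes and 88 of the 34967 gene probes on the array, of which 15 were for outer membrane genes, 17 for inner membrane genes (every Timm name) and 56 for carriers (every Slc25a name). Of these, 84 carried 1 symbol, for 13 outer membrane, 12 inner membrane and 42 carrier genes. The other 4 were each annotated to a member together with a neighbouring gene. The classes follow the names, and not every gene lies in the membrane that its class names. The small Timm proteins (Timm8a2, Timm8b, Timm9, Timm10, Timm10b and Timm13) act in the intermembrane space or at the outer face of the inner membrane. Tomm34 is a largely cytosolic cochaperone, Slc25a17 works in peroxisomes and Slc25a46 lies in the outer membrane. Timmdc1 is an inner membrane protein that helps to assemble respiratory complex I.

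Total RNA came from posterior tissue, taken just behind the forelimb bud, of embryos at E9.5 whose parents were heterozygous Fkbp8 carriers. There were 3 mutant samples (a, b and c) and 3 wildtype samples (d, e and f), each on its own 1-colour CodeLink Mouse Whole Genome array. The labels name neither the Fkbp8 allele nor the strain, and the source of mutant a is given in the plural, so whether it was a pool is not known. Fkbp8 encodes a membrane-anchored member of the FK506-binding protein family that sits in the outer mitochondrial membrane, which is where precursors are first received for import.

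Most mitochondrial proteins are made in the cytosol and enter through the outer membrane translocase. In that complex Tomm20, Tomm22 and Tomm70a are receptors and Tomm40 forms the channel. Samm50 and the metaxins Mtx1 and Mtx2 insert barrel proteins such as Vdac1, the porin of the outer membrane. Precursors with a presequence then pass through the Timm23 translocase, and carrier precursors are escorted by small Timm chaperones to the Timm22 translocase, which inserts them into the inner membrane. The carriers exchange metabolites, nucleotides, cofactors and ions across that membrane.

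Values are log2 of spot intensity after background correction and quantile normalization, and a difference is mutant minus wildtype on that log2 scale. A probe was called above background when the scanner software marked its spot good or saturated. It was tested when it was above background on at least 3 of 6 arrays. The Fkbp8 probe read 10.57, 10.74 and 10.67 in wildtype d, e and f and 6.28, 6.30 and 6.11 in mutant a, b and c, and it was above background on none of the mutant arrays. That is a level at least 18.8-fold lower in mutants (limma difference -4.43, SE 0.09, adjusted p = 1.18e-07; exact permutation p = 0.1, the smallest that 3 against 3 allows). Between 57.6% (mutant c) and 61.8% (wildtype f) of gene probes were above background on an array. All 9 listed posterior markers were above background on all 6 arrays. Of these 7 were lower in mutants (median difference -0.11), where 52.4% of all tested probes were higher. Hoxa9 (-0.51, SE 0.09, limma adjusted p = 0.147) and Sox2 (-0.50, SE 0.19, limma adjusted p = 0.356) were lower at an unadjusted p under 0.05. These 2 are 22.2% of the list, where 5.81% of all tested probes were lower at that p, and no listed posterior marker passed adjustment. The part of tissue composition in the member values was not tested. Of 6 cardiac genes with a probe 4, Myh6, Myh7, Tnnt2 and Nkx2-5, were above background on 0 arrays. Myl7 and Actc1 were above background on all 6 arrays, with differences of 0.09 (SE 0.07) and 0.14 (SE 0.17). Of 4 listed Y-linked genes, Uty, Ddx3y and Eif2s3y were detected on all 3 mutant arrays and on no wildtype array, and the reverse held for the detected Xist probe. The Kdm5d probe was detected on all 6 arrays and was higher in mutants by 0.63 (SE 0.08, limma adjusted p = 0.0403). Effects of sex and of genotype therefore cannot be told apart in any result that follows.

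No member probe passed the threshold, a limma p under 0.05 after adjustment by Benjamini and Hochberg across the 21688 tested probes. The count was 0 of 75 tested member probes, beside 26 probes in the whole table, or 0.12%. The lowest adjusted p by limma was 0.289 in the outer membrane class, 0.318 in the inner membrane class and 0.279 among carriers. At an unadjusted p under 0.05 there were 10 member probes of 75 (13.3%), 5 higher and 5 lower, where 12.2% of all tested probes reached it, 6.43% higher and 5.81% lower. By class these were 2 of 13 outer membrane probes (15.4%), 2 of 15 inner membrane probes (13.3%) and 6 of 47 carrier probes (12.8%). These shares are near that of the whole array. The count of 10 fell to 3 without wildtype e, where 8.95% of all probes reached that p, to 3 without mutant b (10.6%), to 5 without wildtype f (8.0%) and to 6 without wildtype d (9.55%). The usable mutant values lay wholly above or below the usable wildtype values for 16 member probes (21.3%), 6 higher and 10 lower. Over all probes this was 19.7%, 11.2% higher and 8.56% lower. The 16 include Timm22, with 2 usable arrays a group, and Vdac1 probe GE38309, with 3 wildtype against 2 mutant arrays, where separation is easier to reach.

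The intervals set a bound on how far the members may differ on this log2 scale. Background correction added an offset of 50, which makes differences of dim probes smaller than they are. For dim probes the bound therefore holds only for the reduced differences. The dim Slc25a30 probe, for example, was at -0.22 here and at -0.57 with background subtracted and a floor of 1. For 68 of 75 member probes (90.7%) the 95% interval of the difference lay within 1.5-fold either way, as it did for 93.1% of all probes. This held for 11 of 13 outer membrane probes, 15 of 15 inner membrane probes and 42 of 47 carrier probes. The 7 with wider or shifted intervals were 1 probe each of Tomm70a, Vdac1, Slc25a15, Slc25a20, Slc25a37, Slc25a38 and Slc25a51. The spread between arrays was small, with a median SD over member probes of 0.09 in wildtype and 0.11 in mutants, the same as over all probes.

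**Figure D1:**
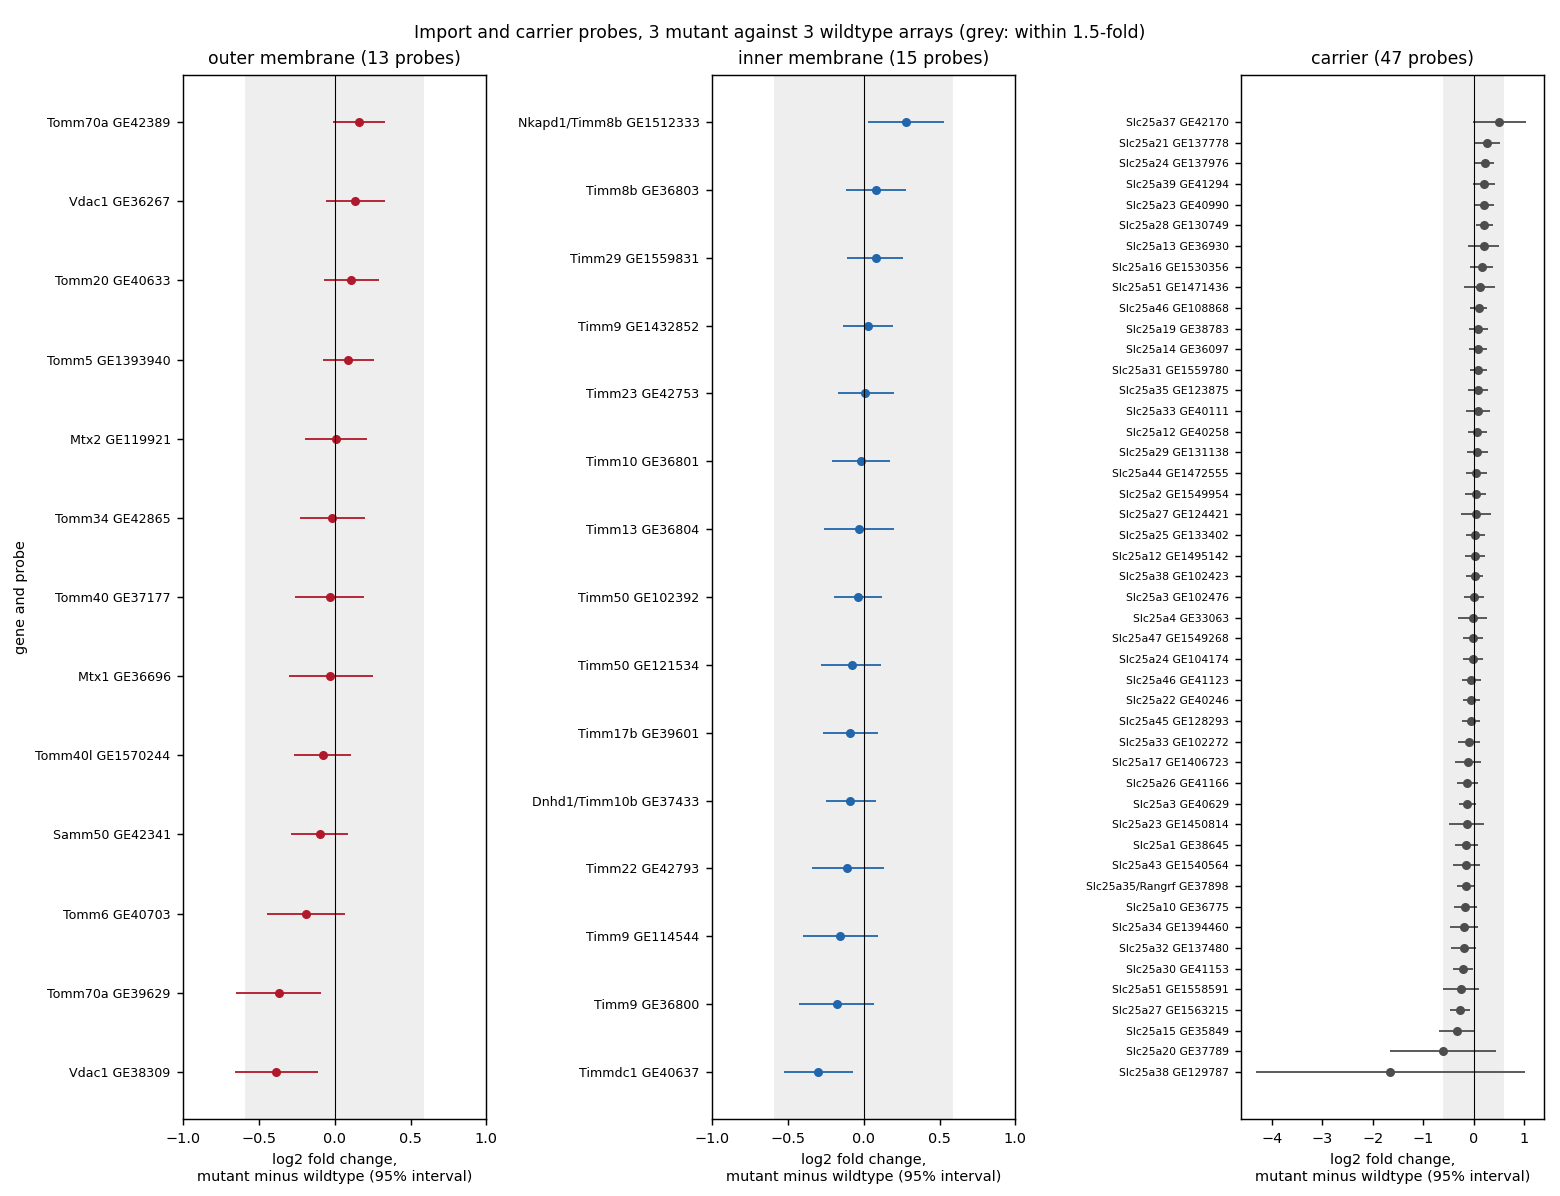
Difference between mutant and wildtype (log2, x axis) with its 95% limma interval for the 75 tested member probes (y axis), 3 arrays a group; grey marks 1.5-fold either way, and the carrier panel has a wider axis. Differences run from -0.39 to 0.16 in the outer membrane class, from -0.30 to 0.28 in the inner membrane class and from -1.65 to 0.51 among carriers, and 68 of the 75 intervals lie within the grey band.

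Over the 58 tested genes, taking the brightest probe of each, the median difference was -0.02 for 11 outer membrane genes, -0.06 for 10 inner membrane genes and 0.02 for 37 carriers, beside 0.01 over all tested probes. The middle range of member differences, from -0.13 to 0.08, was close to that of all probes, from -0.09 to 0.10. By array, the median distance of the inner membrane genes from their own 6-array mean was 0.02, 0.07 and 0.00 in wildtype d, e and f and -0.02, -0.01 and -0.03 in mutant a, b and c. The groups did not overlap in that median, but the difference turned to 0.05 with median centring in place of quantile normalization, where the median of all probes was 0.03. For the outer membrane genes the values were -0.02, 0.03 and -0.03 in wildtype and 0.08, -0.02 and 0.03 in mutants, and for carriers 0.02, -0.01 and -0.01 in wildtype and 0.04, 0.04 and -0.03 in mutants. In both of these classes the groups overlapped.

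Of the receptors, Tomm20 read 13.26, 13.24 and 13.12 in wildtype and 13.40, 13.24 and 13.32 in mutants. The difference of 0.11 (SE 0.08, limma adjusted p = 0.607) lay within the spread of the arrays. The only probe named for Tomm22 was above background on 0 of 6 arrays, as was that of Tomm20l, so neither has a measured level here. Tomm70a, the receptor for carrier and other hydrophobic precursors, had a pair of probes that went opposite ways. Probe GE39629 read 10.91, 11.05 and 10.96 in wildtype and 10.53, 10.40 and 10.88 in mutants, a difference of -0.37 (SE 0.12, limma adjusted p = 0.311). Probe GE42389 read 11.34, 11.46 and 11.41 in wildtype and 11.61, 11.55 and 11.51 in mutants, a difference of 0.16 (SE 0.07, limma adjusted p = 0.443). On each of these probes the groups did not overlap, in opposite directions, and each kept its sign under all 13 alternatives, from -0.51 to -0.27 for GE39629 and from 0.12 to 0.23 for GE42389.

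The channel gene Tomm40 differed by -0.03 (SE 0.10) and its paralogue Tomm40l by -0.08 (SE 0.08). The small subunits Tomm5 and Tomm6 differed by 0.09 (SE 0.08) and -0.19 (SE 0.11). In Tomm6, wildtype arrays were at 11.17 to 11.20 and mutants at 11.17, 11.09 and 10.73, so most of that difference was in mutant c. Samm50, the core of the sorting and assembly machinery, differed by -0.10 (SE 0.08), Mtx1 by -0.03 (SE 0.12), Mtx2 by 0.01 (SE 0.09) and Tomm34 by -0.02 (SE 0.09). The lowest adjusted p among these genes was 0.539 (limma, Tomm6).

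Vdac1 also had probes of opposite sign. Probe GE38309 read 9.13, 9.44 and 9.35 in wildtype and 9.0 and 8.84 in mutant a and c, with the spot of mutant b left out because of its scanner mark. Its difference was -0.39 (SE 0.12, limma adjusted p = 0.289), from 3 against 2 arrays. Probe GE36267 read 12.78, 12.76 and 12.61 in wildtype and 12.96, 12.81 and 12.78 in mutants, a difference of 0.13 (SE 0.09, limma adjusted p = 0.558) with overlapping groups. No probe here carried the name of Tomm7, Vdac2 or Vdac3.

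In the presequence translocase, the channel gene Timm23 read 12.06, 11.91 and 11.91 in wildtype and 12.05, 11.90 and 11.96 in mutants, a difference of 0.01 (SE 0.08). Its partner Timm17b, which is X-linked, differed by -0.09 (SE 0.08). Both probes of the receptor subunit Timm50 were slightly lower, at -0.08 (SE 0.09) and -0.04 (SE 0.07). Timm21 was detected on 1 wildtype array and no mutant array and was not tested. In the carrier translocase, Timm22 differed by -0.11 (SE 0.10, 2 usable arrays a group) and its subunit Timm29 by 0.08 (SE 0.08). None of these differences passed (limma adjusted p from 0.680 for Timm17b to 0.966 for Timm23).

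The small chaperones of the intermembrane space shield hydrophobic precursors on the way to the inner membrane. Timm10 differed by -0.02 (SE 0.08) and Timm13 by -0.03 (SE 0.10). The 3 probes of Timm9 differed by 0.03, -0.18 and -0.16 (SE 0.07, 0.11 and 0.10). The probe specific to Timm8b read 12.77, 12.62 and 12.62 in wildtype and 12.63, 12.83 and 12.79 in mutants, a difference of 0.08 (SE 0.09). A second probe, annotated to Timm8b and to the gene Nkapd1, read 8.50, 8.37 and 8.48 in wildtype and 8.50, 8.79 and 8.90 in mutants, a difference of 0.28 (SE 0.11, limma adjusted p = 0.363). Which of the 2 transcripts that probe reads is not settled by the annotation. The probe shared by Timm10b and Dnhd1 differed by -0.09 (SE 0.07), and Timm8a2 was above background on 1 of 6 arrays. For 3 probes of this group the array file and RefSeq give different names to the same accession. What the array file calls Timm10, Timm13a and Timm9 is Timm9, Timm10 and Timm13 in RefSeq, and the RefSeq names are used here.

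Timmdc1, the assembly factor, had the smallest p of the inner membrane class. Wildtype arrays read 7.19, 7.44 and 7.35 and mutants 6.87, 7.17 and 7.04, a difference of -0.30 (SE 0.10, limma adjusted p = 0.318). The highest mutant lay just below the lowest wildtype array. No probe here carried the name of Timm17a, Timm44 or Timm8a1.

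The carriers of the energy pathways differed little. Slc25a4, which exchanges ADP and ATP, read 13.38, 13.72 and 13.38 in wildtype and 13.25, 13.57 and 13.59 in mutants, a difference of -0.02 (SE 0.13), and its germ-cell relative Slc25a31 differed by 0.09 (SE 0.08). The phosphate carrier Slc25a3 read 13.31, 13.25 and 13.37 in wildtype and 13.21, 13.13 and 13.22 in mutants on probe GE40629. There the groups did not overlap, but the difference of -0.13 (SE 0.07) did not pass (limma adjusted p = 0.522), and the second probe was at 0.01 (SE 0.09). The citrate carrier Slc25a1 differed by -0.15 (SE 0.10), the dicarboxylate carrier Slc25a10 by -0.17 (SE 0.10) and the aspartate-glutamate carrier Slc25a13 by 0.20 (SE 0.14). Both probes of its paralogue Slc25a12 lay at 0.02 and 0.07. No probe here carried the name of Slc25a5 or Slc25a11.

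The 6 carrier probes at an unadjusted p under 0.05 belonged to several branches of the family. Slc25a27, a relative of the uncoupling proteins, read 7.70, 7.55 and 7.54 in wildtype and 7.26, 7.41 and 7.30 in mutants on probe GE1563215. That difference of -0.27 (SE 0.08, limma adjusted p = 0.279) was not seen on its second probe, at 0.04 (SE 0.13). Slc25a30, of the same branch, read 6.74, 6.64 and 6.73 in wildtype and 6.61, 6.51 and 6.34 in mutants (difference -0.22, SE 0.09, limma adjusted p = 0.383), and was above background on 1 of 3 mutant arrays.

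The carriers of the calcium-regulated ATP-magnesium and phosphate exchange were measured by 5 probes of 3 genes. Slc25a24 probe GE137976 read 9.74, 9.67 and 9.74 in wildtype and 9.99, 10.03 and 9.80 in mutants (difference 0.22, SE 0.08, limma adjusted p = 0.349), while its other probe was at -0.02 (SE 0.09). Slc25a23 probe GE40990 read 8.46, 8.61 and 8.47 in wildtype and 8.75, 8.81 and 8.59 in mutants (difference 0.21, SE 0.09, limma adjusted p = 0.391), while its other probe was at -0.14 (SE 0.15). Slc25a25 was at 0.03 (SE 0.09). Slc25a24 and Slc25a23 thus each gave a nominal difference on 1 probe only, and for Slc25a23 the other probe was near background. Slc25a21, the oxodicarboxylate carrier, read 7.51, 7.40 and 7.25 in wildtype and 7.69, 7.82 and 7.43 in mutants, with overlapping groups (difference 0.26, SE 0.11, limma adjusted p = 0.407).

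**Figure D2:**
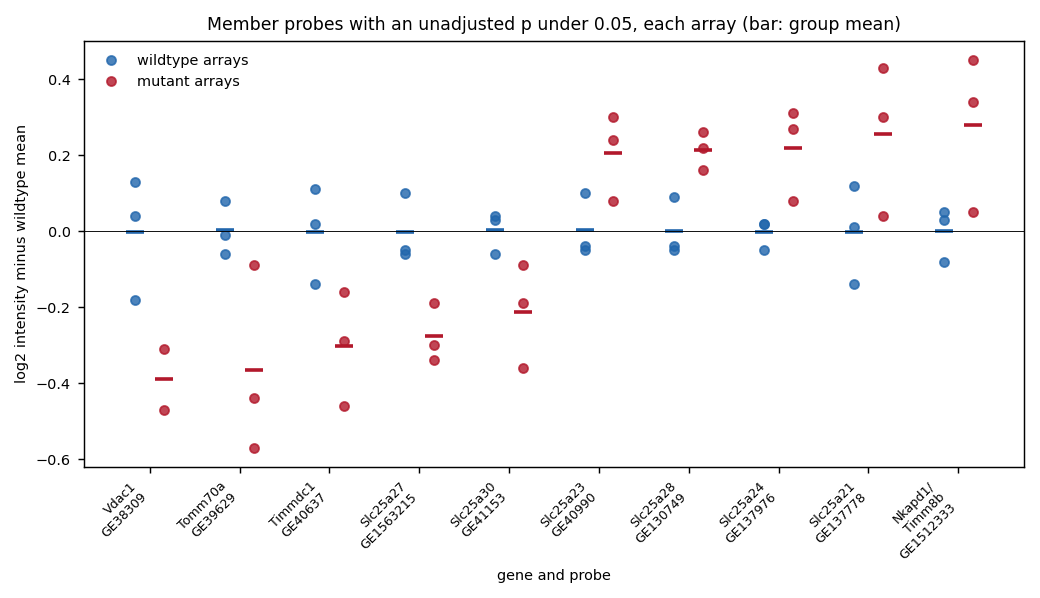
The 10 member probes with an unadjusted limma p under 0.05 (x axis), each array as a point at its log2 intensity minus the wildtype mean (y axis), wildtype in blue and mutant in red, bars for group means. The 5 lower and 5 higher probes differ by -0.39 to -0.22 and by 0.21 to 0.28 on the log2 scale, and the lowest adjusted p among them is 0.279.

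Probes of 1 gene often differed in sign. Of the 13 member genes with several tested probes, 11 had probes of opposite sign, and the median distance between the lowest and highest probe of a gene was 0.24. The same share over all genes on the array is not given here, so this count is not shown to be particular to the members. Differences near 0 may fall on either side of it. The 11 genes include Slc25a38, by a probe that was low on mutant a alone, and Slc25a23, by its dim probe. In 5 of the genes with a nominal probe, Tomm70a, Vdac1, Slc25a23, Slc25a24 and Slc25a27, the other probe had the opposite sign. Timm50 and Slc25a12 were the 2 genes whose probes had the same sign.

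**Figure D3:**
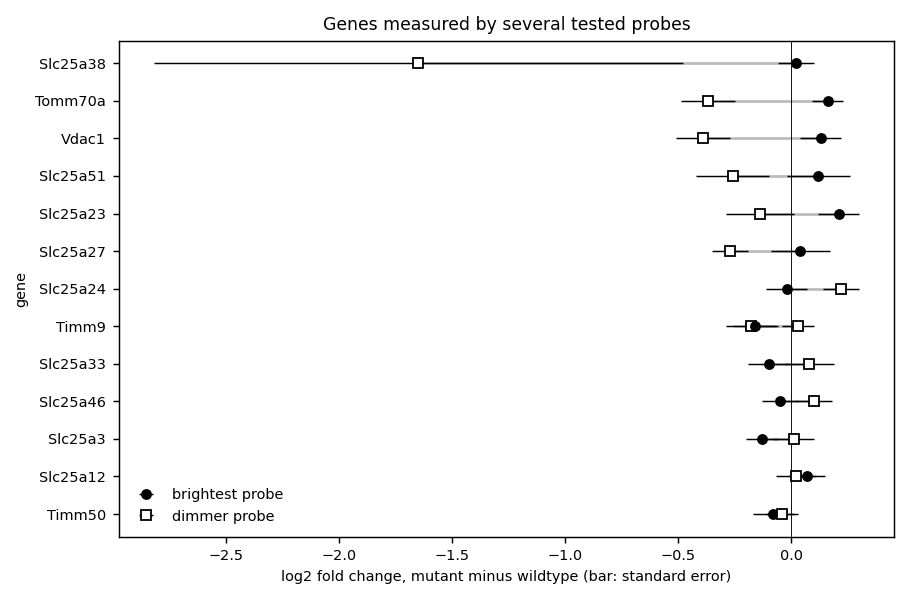
Difference between mutant and wildtype (log2, x axis) for each tested probe of the 13 genes measured by several probes (y axis), bars showing the limma standard error; filled circles are the brightest probe of a gene and open squares the dimmer ones. The probes of 11 genes lie on both sides of 0, farthest apart for Slc25a38 (-1.65 and 0.02), Tomm70a (-0.37 and 0.16) and Vdac1 (-0.39 and 0.13).

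The widest differences among all members came from 1 array. Slc25a38, which carries glycine for heme synthesis, read 11.25, 11.04 and 11.40 in wildtype on probe GE129787 and 6.19, 11.05 and 11.51 in mutant a, b and c. Its difference was -1.65 (SE 1.17, limma adjusted p = 0.593) with mutant a and 0.05 without it, and its other probe, GE102423, read 10.86 to 11.03 in wildtype and 10.91 to 10.98 in mutants. Slc25a20, the carnitine-acylcarnitine carrier, read 7.72, 7.73 and 7.81 in wildtype and 5.86, 7.51 and 8.07 in mutants, and its difference moved from -0.61 (SE 0.46, limma adjusted p = 0.617) to 0.03 without mutant a. These were the only 2 tested member probes lower on any array by over 1.5 than the median of the other arrays.

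Both probes lie in 1 short run of spots, numbered 35548 to 35561, a range chosen after the values were seen. Of 14 gene probes in it, 7 were bright on the other arrays (log2 over 7.5), and mutant a was below the median of the other arrays by over 1.5 on 6 of them, with deviations from -1.45 to -7.05 over all 7. The other arrays stayed between -0.27 and 0.50 at those spots. At the 16 bright spots on either side, within spots 35530 to 35580, mutant a lay between -0.20 and 0.53, Slc25a28 among them. Over the whole array, 58 bright probes of 12909 were lower by over 1.5 on mutant a, against 6 to 26 on the others.

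**Figure D4:**
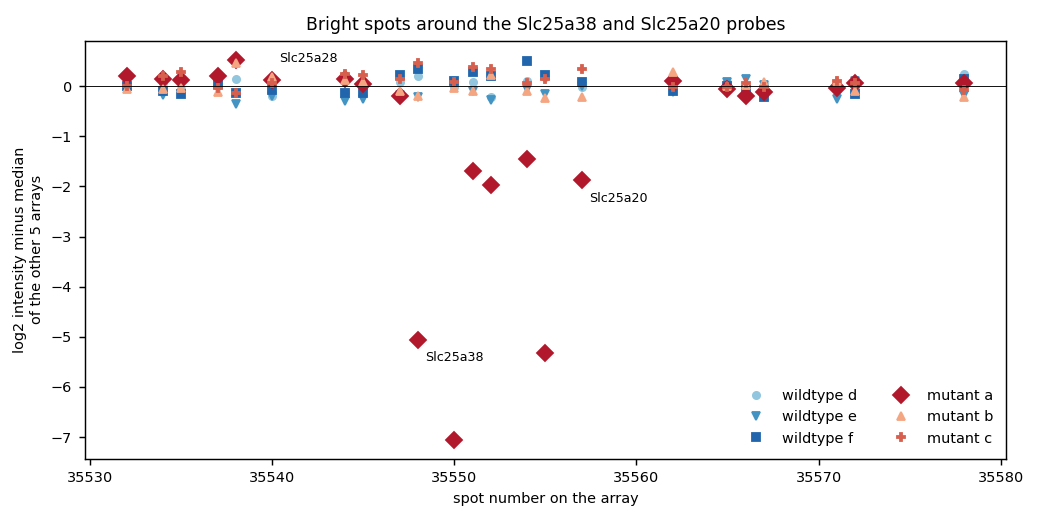
Log2 intensity minus the median of the other 5 arrays (y axis) at bright spots numbered 35530 to 35580 (x axis), 1 marker per array. Mutant a is at -1.45 to -7.05 at 7 spots from Slc25a38 to Slc25a20 and lies within -0.20 to 0.53 at the 16 spots around them.

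At E9.5 primitive red cells circulate in the embryo and make heme, for which mitochondria take up iron and glycine. Slc25a37, mitoferrin of red cell precursors, imports iron and had the largest positive difference of all members. It read 9.99, 9.93 and 9.33 in wildtype and 9.91, 10.73 and 10.16 in mutants, with overlapping groups (difference 0.51, SE 0.23, limma adjusted p = 0.415). The difference was 0.30 without wildtype f and 0.28 without mutant b. The mean of the 9 tested erythroid markers with a value on every array was 10.87, 10.78 and 10.41 in wildtype d, e and f and 11.04, 11.0 and 10.85 in mutant a, b and c. Wildtype f was lowest for Slc25a37 and for that mean, and the wildtype arrays fell in the same order in both. The mutant arrays did not, as mutant a had the highest marker mean and the lowest Slc25a37 value of the 3. Of the 12 listed erythroid markers 11 had a probe and 10 were tested. Of these 10 genes 4 reached an unadjusted p under 0.05 (Alas2, Epor, Rhag and Slc4a1, all higher in mutants), where 6.43% of all probes did so in that direction, 0 passed adjustment by limma, and the median difference over the 10 was 0.31. By the brightest probe of each, all 10 were positive, Hba-x and Hbb-bh1 only before rounding, where 52.4% of all tested probes were positive. The embryonic globins Hba-x and Hbb-bh1 differed by 0.00 (SE 0.14) and, on its 2 probes, by 0.00 (SE 0.08) and 0.07 (SE 0.26). The embryonic globin Hbb-y differed by 0.29 (SE 0.19, limma adjusted p = 0.577), from 3 against 2 arrays, with no value for mutant a. The part of red cell content in the Slc25a37 value was not tested, and in bulk tissue more cells of a type and more RNA per cell cannot be told apart.

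The related genes differed by less. Slc25a28, the mitoferrin of other tissues, read 8.66, 8.65 and 8.79 in wildtype and 8.92, 8.96 and 8.86 in mutants (difference 0.21, SE 0.08, limma adjusted p = 0.333), with all mutants above all wildtypes. Slc25a39, a glutathione carrier, read 11.57, 11.65 and 11.74 in wildtype and 11.75, 11.78 and 12.05 in mutants (difference 0.21, SE 0.10, limma adjusted p = 0.441), again without overlap. The Slc25a38 probe outside the spot run was at 0.02 (SE 0.08).

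**Figure D5:**
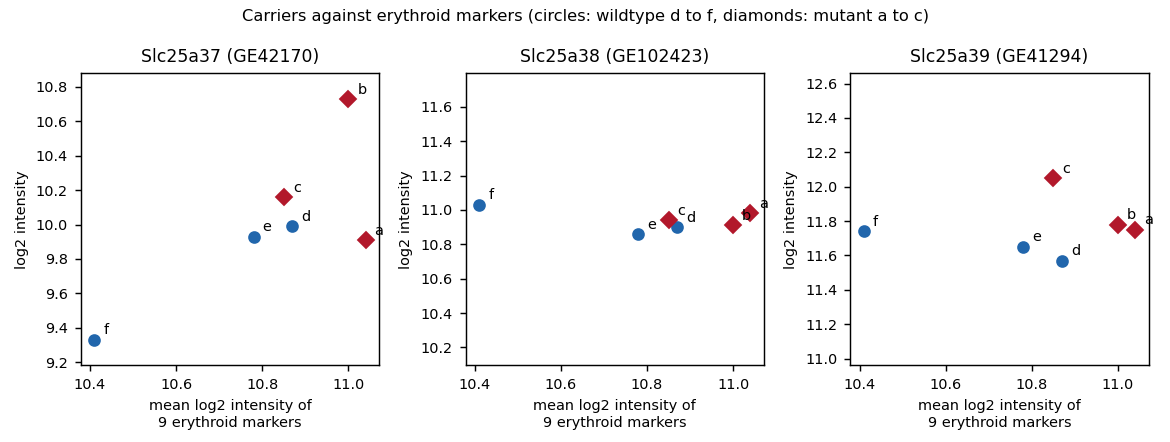
Log2 intensity of Slc25a37, Slc25a38 (probe GE102423) and Slc25a39 (y axes, same span) against the mean log2 intensity of 9 erythroid markers (x axis), 1 point per array, wildtype d to f as blue circles and mutant a to c as red diamonds. Slc25a37 is lowest on wildtype f (9.33), which also has the lowest marker mean (10.41), and highest on mutant b (10.73), while the highest marker mean is that of mutant a (11.04).

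Among the remaining carriers, the ornithine carrier Slc25a15 differed by -0.34 (SE 0.15, limma adjusted p = 0.421, mutant c left out because of its scanner mark), the folate carrier Slc25a32 by -0.20 (SE 0.11) and Slc25a16 by 0.16 (SE 0.10). The probes of the NAD carrier Slc25a51 lay at -0.26 (SE 0.16) and 0.12 (SE 0.14), and those of Slc25a46 at -0.05 (SE 0.08) and 0.10 (SE 0.08). The peroxisomal Slc25a17 was at -0.11 (SE 0.11). The X-linked Slc25a14 and Slc25a43 differed by 0.09 (SE 0.08) and -0.15 (SE 0.12). Over all classes 34 member probes were positive and 41 negative, where 52.4% of all tested probes were positive; carriers were split 24 to 23.

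In all, 13 member probes were not tested, since they were above background on too few arrays. They were the probes of Timm21, Timm8a2, Tomm20l, Tomm22, Slc25a18, Slc25a40, Slc25a42 and Slc25a48, both of Slc25a53, 1 of Slc25a47, 1 of Slc25a35 and 1 shared by Slc25a35 and Rangrf. Slc25a42, the coenzyme A carrier, lies on chromosome 8 as Fkbp8 does and was above background on 0 of 6 arrays. The tested members Slc25a4, Slc25a15 and Tomm20, described above, lie on that chromosome too. No member was above background on every array of 1 group and none of the other.

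Beyond the members, a list of 46 mitochondrial genes with other names was examined. It mixes import factors with proteases, genes of the cristae-organising complex and uncoupling proteins, so its counts are not of import factors alone. Of these genes 37 had a probe and 33 were tested. None passed adjustment by limma, and 9 genes (27.3%) reached an unadjusted p under 0.05, 4 higher and 5 lower. By probe this was 9 of 38 (23.7%), against 12.2% of all probes. Over the 13 alternative fits the count of genes ran from 4 to 11. It was 4 without wildtype e, where 8.95% of all probes reached that p, and 11 with array weights (12.3%). The median difference was -0.06, with 12 genes positive and 21 negative. Yme1l1, a protease of the inner membrane, had the smallest p. It read 8.97, 8.93 and 8.88 in wildtype and 8.56, 7.84 and 8.29 in mutants (difference -0.70, SE 0.16, limma adjusted p = 0.215). Chchd4, the receptor of the oxidative import route into the intermembrane space, read 9.58, 9.74 and 9.64 in wildtype and 9.42, 9.31 and 9.23 in mutants (difference -0.33, SE 0.08, limma adjusted p = 0.239). Mtch2, an outer membrane insertase, read 12.28, 12.20 and 12.17 in wildtype and 12.51, 12.51 and 12.55 in mutants (difference 0.30, SE 0.07, limma adjusted p = 0.221). In each of these 3 genes the groups did not overlap. Apool, of the cristae-organising complex, was at 0.31 (SE 0.09, limma adjusted p = 0.248) on probe GE1388603 and at 0.11 and 0.04 on its other probes, and is X-linked.

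Clpx, the unfoldase of the matrix protease, was singled out after its values were seen. It read 7.01, 7.04 and 9.46 in wildtype d, e and f and 8.98, 9.64 and 9.5 in mutants, so that wildtype f lay among the mutants. Its difference was 1.54 (SE 0.57, limma adjusted p = 0.345) with all arrays and 2.35 (SE 0.18, limma adjusted p = 0.00737) without wildtype f, the 1 call among these genes under any alternative.

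Promoters were searched for 6 motifs, a property that the choice of members did not use, and the shares of the classes lay far apart for 2 of them. Promoters of 55 of the 67 genes were found in the RefSeq table of GRCm38.p6, 68 in all, each from 250 bases before to 50 after the start of the gene. The letters CCGGAAGT, a form of the site bound by ETS factors such as Gabpa that is known in promoters of mitochondrial genes, were searched on both strands. They were in 5 of 12 inner membrane promoters (41.7%), 2 of 14 outer membrane promoters (14.3%) and 1 of 42 carrier promoters (2.38%). Of all 32851 promoters 3.89% held them, and of promoters of genes tested on the array 6.53%. The 8 genes were Timm10, Timm23, Timm29, Timm8a2, Timmdc1, Mtx2, Tomm70a and Slc25a20. The promoters of 3 genes of the inner membrane class and of Tomm70a, a receptor gene of the outer membrane class, are shown as examples of where these letters lie, in lower case on the strand of the gene, with the match in capitals (ACTTCCGG is the same site on the other strand). They lie at chr2:84826771-84827070 (plus strand), chr14:32201842-32202141 (minus strand), chr9:21592472-21592771 (plus strand) and chr16:57121464-57121763 (plus strand).
Timm10: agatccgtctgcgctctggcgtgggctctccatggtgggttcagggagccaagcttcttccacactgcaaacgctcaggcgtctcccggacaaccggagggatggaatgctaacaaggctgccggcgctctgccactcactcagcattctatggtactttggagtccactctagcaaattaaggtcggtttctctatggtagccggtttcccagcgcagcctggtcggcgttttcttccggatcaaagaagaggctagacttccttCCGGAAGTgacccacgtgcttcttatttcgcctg
Timm23: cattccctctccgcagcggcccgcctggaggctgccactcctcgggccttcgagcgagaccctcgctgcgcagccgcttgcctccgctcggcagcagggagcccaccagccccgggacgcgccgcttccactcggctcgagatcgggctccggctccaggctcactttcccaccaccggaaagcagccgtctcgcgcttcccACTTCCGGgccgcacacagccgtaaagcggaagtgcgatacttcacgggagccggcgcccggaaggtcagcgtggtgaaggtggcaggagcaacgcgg
Timm29: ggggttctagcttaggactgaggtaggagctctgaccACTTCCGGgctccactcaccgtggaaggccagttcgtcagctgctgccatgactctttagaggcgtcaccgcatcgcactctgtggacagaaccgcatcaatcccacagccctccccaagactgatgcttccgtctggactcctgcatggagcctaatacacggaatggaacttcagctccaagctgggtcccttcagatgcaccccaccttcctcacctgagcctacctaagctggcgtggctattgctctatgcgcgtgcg
Tomm70a: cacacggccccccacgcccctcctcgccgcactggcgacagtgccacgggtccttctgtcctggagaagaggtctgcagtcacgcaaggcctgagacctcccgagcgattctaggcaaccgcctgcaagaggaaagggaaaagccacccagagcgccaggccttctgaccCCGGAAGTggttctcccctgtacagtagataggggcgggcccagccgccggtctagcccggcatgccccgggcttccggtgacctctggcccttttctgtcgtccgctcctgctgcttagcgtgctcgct

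The GC box GGGCGG ran the other way, in 35 of 42 carrier promoters (83.3%), 10 of 14 outer membrane promoters (71.4%) and 3 of 12 inner membrane promoters (25%), against 35.7% of all promoters and 57.5% of those of tested genes. The other 4 motifs were in few promoters of any class. The TATA box TATAAA was in 7.14% of outer membrane, 8.33% of inner membrane and 4.76% of carrier promoters, against 8.98% of those of tested genes. The NRF1 motif was in the same shares of the 3 classes, against 8.32%. The YY1 motif AANATGGC was in 14.3%, 8.33% and 4.76%, against 7.35%, and the CRE motif TGACGTCA in 1 carrier promoter (2.38%) and 0 others, against 2.72%. These are descriptions of the letters in the window, with no test. The median difference in expression was 0.01 over 7 tested genes with the ETS letters and -0.02 over 40 without.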

How the data were processed

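Posterior tissue of E9.5 embryos was hybridized to 6 one-colour arrays, and groups were taken from the sample titles. Spot intensity (mean of the spot, median of its local background) was deposited by the authors as scanner output, per the file headers, and the series table held intensity divided by 1 factor per array. Array depth is given by signal: median background-subtracted intensities were 51.8 (mutant c) to 64.5 (mutant b).

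From these, background was corrected with normexp (offset 50), control spots were dropped, and the 339 to 508 spots of each array with a mark for contamination, irregular shape or masking were treated as missing before quantile normalization of the log2 values. The offset makes differences of dim probes smaller than they are. Probes above background on at least 3 of 6 arrays entered the test if each group kept 2 usable spots or more, with limma 3.58.1 in R 4.3.3, and Benjamini-Hochberg adjustment ran over all 21688 tested probes. The script was tested on simulated data. Errors are limma standard errors, and the p-values rest on the spread among these arrays, since the labels do not say that each came from its own embryo.

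Symbols came from the platform annotation, brought up to date through Entrez IDs in RefSeq (GRCm38.p6; 21442 probes), or from RefSeq accessions (417) or the array file (230). In all, 22224 gene probes had 1 symbol, 204 several and 12539 none. That assembly's coordinates are given for promoter sequences only. Named members are the 6 of smallest p in each class, among probes with 1 symbol. Added to these are genes above background in 1 group alone and a fixed list of core import and carrier genes, besides others singled out in the text. The named genes of the mitochondrial list outside the classes are the 4 of smallest p, and Clpx. Members and lists were chosen with earlier results of these data known. Besides the erythroid and posterior lists, those of cardiac muscle (2 genes tested, median difference 0.11), endothelium (5 tested, 0.01; Kdr alone at an unadjusted p under 0.05) and liver and visceral endoderm (2 tested, -0.02) were checked. Alternatives were median centring, cyclic loess, subtracted background with a floor of 1, the deposited table with a floor of 0.1, both ends of the filter, array weights, each array left out, all probes averaged, and X-linked genes left out.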

Additional observations from a re-analysis of the deposited data

How the results depend on the processing

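No member probe passed the threshold under any of the 13 alternative fits. The lowest adjusted p that limma gave any member was 0.143 (Tomm70a probe GE39629, without mutant c). Of 40 named probes 15 took the other sign in at least 1 alternative, and 0 of 514 values under the alternatives was called. Named probes carry 1 symbol each, so the nominal probe shared by Timm8b and Nkapd1 is not among them. The count at an unadjusted p under 0.05, 10 in the report, was 6 with median centring and 3 to 13 with each array left out. The count of genes that passed on the mitochondrial list outside the classes was 0, and 0 to 1 with each array left out. Fkbp8 differed by -6.58 to -4.37 and passed wherever it was tested. With median centring the class medians were 0.06 for outer membrane genes, 0.05 for inner membrane genes and 0.06 for carriers, so the sign turned for the first 2 classes. The inner membrane median was -0.02 from the deposited values, -0.03 with the filter on all 6 arrays and -0.03 without X-linked genes. With each array left out it ran from -0.07 to -0.04, the outer membrane median from -0.05 to 0.04 and the carrier median from -0.02 to 0.02. The causes of these shifts were not tested. A block for scan batch was not run, because scan batches are not given in the sources used here, and their part in the results was not tested. No paired analysis was possible because the groups share no replicate letters. With 3 arrays a group, differences within about 1.5-fold were mostly below what these data can call.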
